A study of Mus musculus with 6 samples.

Results

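This section describes 8 genes whose level or copy number can vary between mouse strains: Nnt, Wdfy1, Entpd4, Plac9a, Plac9b, Tmem254a, Tmem254b and Tmem254c. They are 8 of the 24415 gene IDs in the count table, and they form 5 loci once near-identical copies are grouped. The members were chosen by their measured levels, because they differed between the WT and the labelled knockout libraries. Spread within a group entered the choice too, though it was small for only some of the loci. As a result of this choice, the differences given below are a description, and no test is given for any member.

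The data were RNA-sequencing counts of inguinal white adipose tissue, the fat pad of the groin, from 6 mice. WT made up 3 of the libraries, and the other 3 were labelled as knockout for Hsp20, a small heat shock protein whose gene is Hspb6. Both groups were C57BL/6 mice aged 12 weeks that had not been fasted. Library totals ran from 14078936 to 32648746 counts. The sources used here do not give the C57BL/6 substrain, the sex, the Hsp20 allele, its parent cells or the number of backcrosses.

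C57BL/6 is a family of substrains that have bred apart and carry different alleles at some loci. The best known is Nnt. C57BL/6J mice lack several exons of this gene, while C57BL/6N and other substrains keep it, and the mouse reference genome was built from C57BL/6J. Segmental duplications are a second source of such differences, because the number of copies can change between strains, and a short read from 1 copy matches the others equally well. Alleles and copy numbers were not measured here, and whether the groups carried different ones was not tested.

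The members lay on chromosomes 1, 13 and 14 of GRCm38, and Hspb6 lay on chromosome 7 at chr7:30552535-30555443. Nnt lay at chr13:119335527-119409257 on the minus strand and Wdfy1 at chr1:79702262-79776143 on the minus strand. Entpd4 lay at chr14:69337151-69366742 on the plus strand. The other 5 genes lay together on the minus strand of chromosome 14, 43.1 Mb away from Entpd4. In order they were Plac9a at chr14:25888403-25902893, Tmem254a at chr14:25923298-25927672, Tmem254c at chr14:26063751-26067425, Plac9b at chr14:26167316-26182351 and Tmem254b at chr14:26203366-26207025. The starts of the Tmem254 copies were 140.5 kb and 139.6 kb apart. The repeated block, which also held the double-homeobox genes Duxbl1, Duxbl2 and Duxbl3, spanned 381.0 kb.

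The sequence of the block shows how alike its copies are. RefSeq promoter windows of GRCm38.p6, 250 bases before to 50 bases after each gene's start, were matched for 5 of the 8 members, all of them in the block. The windows of Tmem254a and Tmem254c were identical over all 300 bases. Windows of the other copies were offset against each other, because their annotated starts differ, and matched without a mismatch wherever they overlapped: over 222 bases for Plac9a at chr14:25902844-25903143 and Plac9b at chr14:26182302-26182601, and over 284 bases for Tmem254a at chr14:25927623-25927922 and Tmem254b at chr14:26206976-26207275. All 4 are printed 5′ to 3′ on the minus strand, and capitals mark the run shared with the other copy.
Plac9a: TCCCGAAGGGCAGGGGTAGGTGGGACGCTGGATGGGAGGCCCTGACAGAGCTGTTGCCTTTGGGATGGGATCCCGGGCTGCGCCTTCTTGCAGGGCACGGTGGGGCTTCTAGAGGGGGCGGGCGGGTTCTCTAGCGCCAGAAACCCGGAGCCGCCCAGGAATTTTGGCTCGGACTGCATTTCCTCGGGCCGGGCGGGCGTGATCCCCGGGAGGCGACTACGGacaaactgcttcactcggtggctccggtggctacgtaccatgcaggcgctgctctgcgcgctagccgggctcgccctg
Plac9b: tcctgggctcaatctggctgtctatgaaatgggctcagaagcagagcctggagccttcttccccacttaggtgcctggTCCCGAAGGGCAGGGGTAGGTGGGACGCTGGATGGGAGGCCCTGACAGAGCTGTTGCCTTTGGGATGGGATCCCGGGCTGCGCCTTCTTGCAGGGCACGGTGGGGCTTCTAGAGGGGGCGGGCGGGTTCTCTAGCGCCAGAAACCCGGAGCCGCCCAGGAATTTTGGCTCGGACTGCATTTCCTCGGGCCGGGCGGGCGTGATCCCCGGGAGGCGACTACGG
Tmem254a: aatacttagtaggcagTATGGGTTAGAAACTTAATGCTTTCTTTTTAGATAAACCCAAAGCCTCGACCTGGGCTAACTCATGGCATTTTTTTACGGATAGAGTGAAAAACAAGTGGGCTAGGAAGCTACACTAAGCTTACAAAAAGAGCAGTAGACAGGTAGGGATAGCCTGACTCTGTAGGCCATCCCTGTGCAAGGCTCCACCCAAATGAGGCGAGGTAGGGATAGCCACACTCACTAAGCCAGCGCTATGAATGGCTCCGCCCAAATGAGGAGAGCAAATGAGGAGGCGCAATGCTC
Tmem254b: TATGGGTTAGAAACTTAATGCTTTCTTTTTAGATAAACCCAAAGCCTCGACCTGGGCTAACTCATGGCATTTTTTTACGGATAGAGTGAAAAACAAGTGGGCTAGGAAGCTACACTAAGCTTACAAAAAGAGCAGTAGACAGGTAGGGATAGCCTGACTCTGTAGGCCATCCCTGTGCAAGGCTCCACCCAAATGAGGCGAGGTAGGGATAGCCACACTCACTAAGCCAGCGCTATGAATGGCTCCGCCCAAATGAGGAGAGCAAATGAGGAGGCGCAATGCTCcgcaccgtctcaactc

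The transcripts were as alike as these windows. Plac9a-202 and Plac9b-204 matched over 536 bases with 0 mismatches, and Tmem254a-201 matched Tmem254b-202 over 1108 bases and Tmem254c-201 over 1066 bases, also with 0 mismatches. Entpd4-206 matched a transcript of Entpd4b, a neighbouring copy not analysed here, over 3589 bases with 0 mismatches. A further Plac9 copy, Gm9780, matched Plac9a-201 over 1394 bases with 0 mismatches and was not analysed here.

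The counts of the members with copies had a pattern that few other genes shared. The rows of the 5 Plac9 and Tmem254 genes held a multiple of 3 in 6 of 6 libraries, Duxbl1 of the same block in 1 of 6 and Duxbl2 and Duxbl3 in 4 of 6, and Entpd4 held an even count in 6 of 6. Among the 13941 IDs with at least 20 counts in every library, 29 (0.208%) held a multiple of 3 in all 6 libraries and 247 (1.77%) an even count. Tmem254b and Tmem254c held 4284, 4896, 1296, 1347 and 897 counts in common in 5 libraries, and 6552 against 6555 in WT replicate 3. The read counter is not named, and whether shared reads were counted once per matching copy was not tested. The levels of these 5 genes and of Entpd4 are therefore not compared with those of single-copy genes. They were used only to pick genes of like level for the spread, where lower levels were tried too.

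Each copy took nearly the same share of its summed pair in every library. Where a shared read was entered for every copy, the counting itself holds such shares near constant, so nothing is read from them. Plac9a made up between 44.4% (95% Wilson interval 43.7% to 45.1%, WT replicate 3) and 45.0% (43.0% to 47.1%, labelled knockout replicate 2) of the counts of Plac9a and Plac9b. Tmem254a made up between 50.2% and 50.5% of the counts of Tmem254a and Tmem254c. The intervals cover counting error only and are too narrow where a read was counted more than once. Since the reads of the copies cannot be told apart, Plac9a and Plac9b were summed as 1 locus and Tmem254a and Tmem254c as another, with Tmem254b left out of the sum because it repeated Tmem254c. Tmem254a was nearly as close to Tmem254c, with 4371 against 4284 counts in WT replicate 1. A shared read may therefore stand in a sum more than once, so the summed CPM is not the level of 1 copy. The log2 change of the Tmem254a row alone was -1.59.

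The targeted gene was measured first. Hspb6 held 325, 289 and 296 counts in WT replicates 1 to 3 and 245, 33 and 53 counts in the libraries labelled knockout replicates 1 to 3. As CPM, counts scaled to the TMM-adjusted size of each library, these were 12.6, 9.43 and 8.95 against 8.86, 1.51 and 3.94. The library labelled knockout replicate 1 lay just below the lowest WT library, and the other 2 well below it. The log2 change, labelled knockout minus WT, was -1.08 ± 0.51 (SE), with an adjusted p of 0.227 (edgeR quasi-likelihood test, Benjamini-Hochberg).

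Nnt and Wdfy1 were higher in the labelled knockout libraries, and Entpd4, the Plac9 genes and the Tmem254 genes were lower. WT and labelled knockout libraries did not overlap at any of the 5 loci. Among all 15991 tested genes, 5192 (32.5%) did not overlap, 16.9% with the labelled knockout libraries higher and 15.6% with them lower. As the members were chosen on this contrast, nothing is read from their count against that background.

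**Figure D1:**
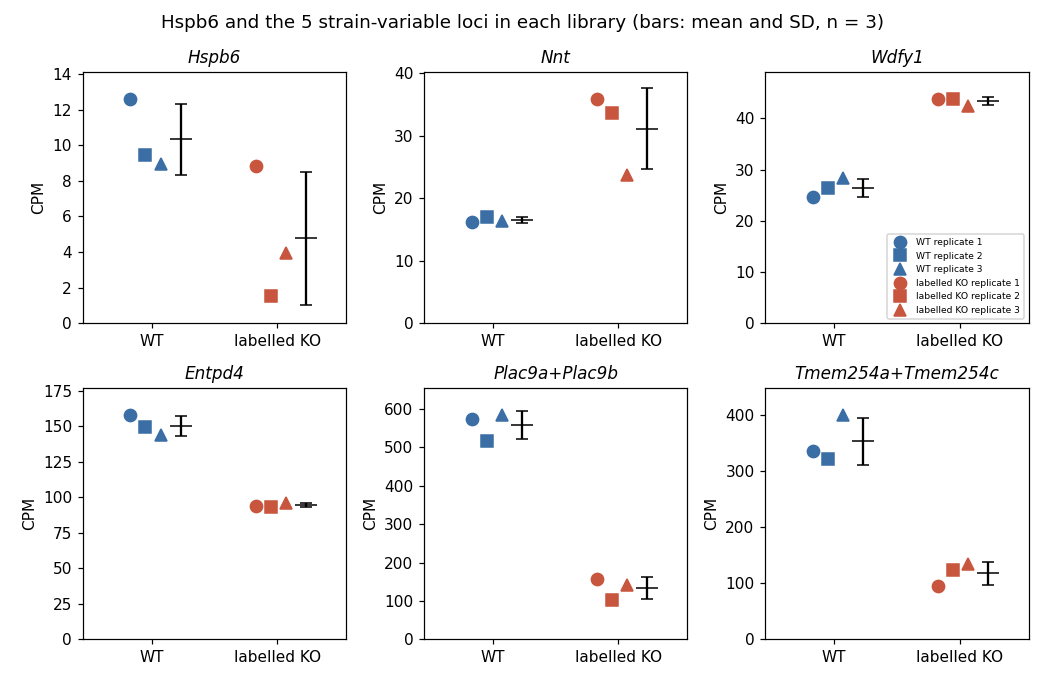
CPM (vertical axes, starting at 0) of Hspb6 and the 5 loci in the 3 WT libraries (blue) and the 3 libraries labelled knockout (red), with the replicate number as the symbol and the mean ± SD as the bar. Groups do not overlap at any of the 6, but Hspb6 of the library labelled knockout replicate 1 sits at 8.86 CPM, next to the lowest WT value of 8.95.

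Nnt encodes the transhydrogenase of the inner mitochondrial membrane, which uses the proton gradient to make NADPH from NADH. Its row held 415, 521 and 539 counts in WT and 992, 734 and 320 counts in the labelled knockout libraries. These came to 16.1, 17.0 and 16.3 CPM in WT and 35.9, 33.6 and 23.8 CPM in the labelled knockout libraries. The WT libraries were nearly alike (coefficient of variation 2.86%), whereas the labelled knockout libraries spread widely (20.7%), with replicate 3 between the WT libraries and the other labelled knockout libraries. Means were 16.5 ± 0.471 CPM in WT and 31.1 ± 6.44 CPM in the labelled knockout libraries (SD, n = 3), a fold of 1.90 and a log2 change of 0.92 ± 0.15 (SE). No WT library was at or near 0, so reads were assigned to this gene in both groups. The count of a whole gene does not show which exons the reads came from.

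Wdfy1 encodes a protein with a FYVE domain and WD repeats that sits on early endosomes and takes part in signalling from the Toll-like receptors TLR3 and TLR4. The gene stood at 24.7, 26.3 and 28.3 CPM in WT and at 43.8, 43.8 and 42.5 CPM in the labelled knockout libraries. Every labelled knockout library was well above every WT library, and those 3 lay closer together than the WT libraries did. The means were 26.4 ± 1.83 and 43.4 ± 0.771 CPM (SD, n = 3), a fold of 1.64 and a log2 change of 0.71 ± 0.08 (SE).

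Entpd4 encodes a nucleoside diphosphatase of the Golgi and lysosomal membranes. Its levels were 158, 150 and 144 CPM in WT and 94.3, 93.5 and 96.2 CPM in the labelled knockout libraries. Again the groups were far apart and each was tight, with coefficients of variation of 4.67% in WT and 1.47% in the labelled knockout libraries. WT averaged 150.6 ± 7.04 CPM against 94.7 ± 1.39 CPM (SD, n = 3), 1.59-fold higher in WT, with a log2 change of -0.67 ± 0.07 (SE).

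Plac9a and Plac9b encode a small secreted protein first found in placenta. Their summed level was 574, 517 and 584 CPM in WT and 158, 103 and 141 CPM in the labelled knockout libraries. The lowest WT library stood far above the highest labelled knockout library, and the labelled knockout libraries differed more among themselves than WT did in relative terms (20.7% against 6.43%). The means, 559 ± 35.9 and 134 ± 27.7 CPM (SD, n = 3), were 4.17-fold apart, the widest difference among the 5 loci, with a log2 change of -2.06 ± 0.16 (SE).

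Tmem254a and Tmem254c encode copies of a small membrane protein of little-known function. Together they stood at 336, 322 and 399 CPM in WT and at 94.4, 124 and 135 CPM in the labelled knockout libraries. WT replicate 3 was the highest library and labelled knockout replicate 1 the lowest, with no overlap. WT averaged 352 ± 41.3 CPM and the labelled knockout libraries 118 ± 20.8 CPM (SD, n = 3), 3.00-fold lower, with a log2 change of -1.58 ± 0.15 (SE). The order of the labelled knockout libraries was not that of Plac9 in the same block: replicate 1 was the highest for Plac9 and the lowest for Tmem254.

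The spread within groups was small for 2 loci and not for the other 3. The pooled within-group SD of log2 CPM was 0.0498 for Entpd4 and 0.0726 for Wdfy1, below the median of 0.161 over all tested genes, and 0.222 for Tmem254, 0.227 for Nnt and 0.232 for Plac9, above it. Of the genes within 2-fold of the same mean CPM, 9.13% of 2980 had a smaller SD than Entpd4 and 19.4% of 5668 a smaller one than Wdfy1. The same share was 82.9% of 5448 for Nnt, 82.8% of 792 for Plac9 and 83.4% of 1358 for Tmem254. Because shared reads may have raised the levels at which these genes were matched, the shares were also taken at lower levels: 8.26% for Entpd4 with its level divided by 2, and 86.4% for Plac9 and 86.0% for Tmem254 with theirs divided by 3. Divided by 6, since each is also a sum of copies, they gave 87.2% and 85.0%. Each of the 3 wide spreads was narrowest with a different library left out. Without labelled knockout replicate 3 the SD of Nnt was 0.0594, without replicate 2 that of Plac9 was 0.104, and without replicate 1 that of Tmem254 was 0.131. The SD of Tmem254 was also lower, at 0.192, without WT replicate 3. Leaving out the library farthest from its group narrows a wide spread for any gene, so nothing is read from these values.

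**Figure D2:**
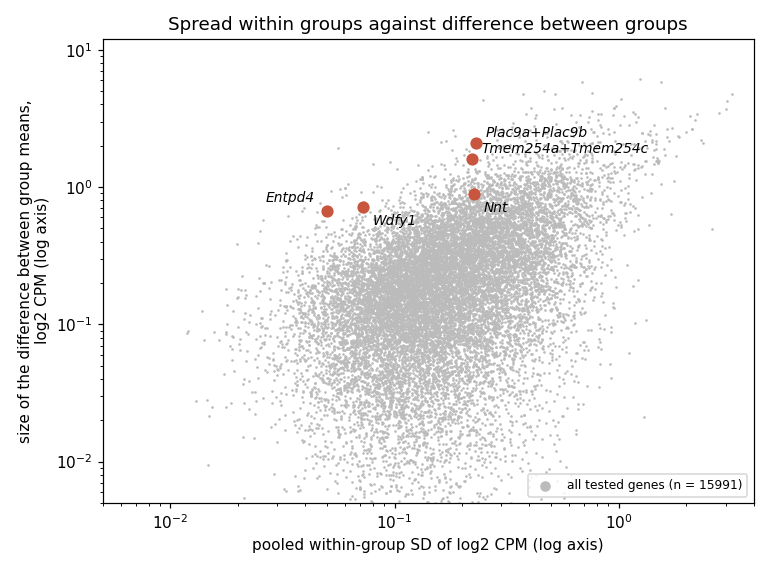
Size of the difference between group means of log2 CPM (vertical, log axis) against the pooled within-group SD of log2 CPM (horizontal, log axis) for the 15991 tested genes (grey) and the 5 loci (red). Entpd4 and Wdfy1 lie in the left part of the cloud at SDs of 0.0498 and 0.0726, while Nnt, Plac9 and Tmem254 lie right of the median of 0.161.

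The gap between the groups gave another order. Measured from the nearest WT library to the nearest labelled knockout library and divided by the wider of the within-group ranges, it was 4.34 for Entpd4, 2.94 for Wdfy1, 2.83 for Plac9 and 2.46 for Tmem254. Nnt alone had a gap smaller than its range, at 0.811. Across all tested genes, 5.96% reached a value of 1 or more. A value as large as that of the locus was held by 36 genes for Entpd4, 102 for Wdfy1, 114 for Plac9, 162 for Tmem254 and 1284 for Nnt. These are the values the members were picked from.

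The library labelled knockout replicate 1, with its Hspb6 near WT, lay with the labelled knockout libraries at all 5 loci. The choice of the members used this library too and favoured loci where the labelled knockout libraries lay together, so its place is a description. Its distance from the WT mean of log2 CPM, divided by the mean distance of the other labelled knockout libraries, was 1.44 for Nnt, 1.03 for Wdfy1, 1.01 for Entpd4, 0.826 for Plac9 and 1.31 for Tmem254. The same share was 0.100 for Hspb6. A value of 1 means as far from WT as the others, and 0 means at the WT mean. Over the 917 called genes with a log2 difference above 0.5, which were picked on the same contrast, the median for this library was 0.805, with quartiles of 0.605 and 1.04, and 55.7% reached 0.75. Replicate 3 stood out for Nnt, at 0.491, and ran from 0.815 to 0.948 at the other 4 loci. Without replicate 1 the log2 changes were 0.81 for Nnt, 0.71 for Wdfy1, -0.67 for Entpd4, -2.19 for Plac9 and -1.45 for Tmem254.

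**Figure D3:**
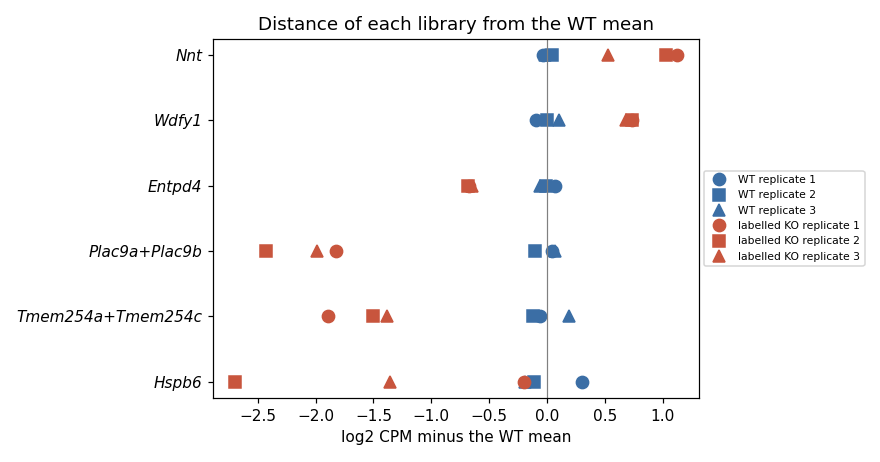
Distance of each library from the WT mean in log2 CPM (horizontal) for the 5 loci and Hspb6 (rows), WT in blue and labelled knockout in red, with the replicate number as the symbol. The 3 labelled knockout symbols nearly coincide for Wdfy1 and Entpd4, and the labelled knockout replicate 1 (circle) joins the others at every locus but lies beside the WT symbols for Hspb6.

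Genes around the loci were not used to choose the members and were tested. Of 58 tested genes starting within 1 Mb of a locus, 7 (12.1%) passed an adjusted p of 0.05 in the edgeR quasi-likelihood test with Benjamini-Hochberg adjustment, 1 higher and 6 lower. The background was 7.60% of the 15991 tested genes, 4.21% higher and 3.38% lower. Counting the 3 Duxbl rows, copies within the chromosome 14 block, as 1 gave 5 of 56 (8.93%), nearer to the background. Leaving them out gave 4 of 55 (7.27%), just under it. The neighbours' count was 2, 1 and 1 without WT replicates 1, 2 and 3, 8 without labelled knockout replicate 1, and 4 and 2 without labelled knockout replicates 2 and 3. The count over all genes, 1215, was 641, 134 and 124 without WT replicates 1, 2 and 3, 602 and 588 without labelled knockout replicates 2 and 3, and 1667 without replicate 1.

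Of the 7 tested neighbours of Wdfy1, 2 passed, and both moved against it. Ap1s3, a subunit of a clathrin adaptor, lies 30.2 kb to the lower-coordinate side, and Serpine2, the protease inhibitor nexin-1, 18.2 kb to the other. Ap1s3 stood at 99.0, 96.3 and 98.0 CPM in WT and 69.4, 71.6 and 69.0 CPM in the labelled knockout libraries, a log2 change of -0.48 ± 0.06 (SE) with an adjusted p of 0.00953 in edgeR. Serpine2 stood at 70.7, 66.5 and 78.6 CPM against 31.4, 33.02 and 38.1 CPM, a log2 change of -1.08 ± 0.10 with an adjusted p of 0.00393 in edgeR. For both genes all 3 labelled knockout libraries lay below every WT library. Serpine2 passed the test with any 1 of the 6 libraries left out, and Ap1s3 in 4 of 6, with 0.0608 and 0.0614 without WT replicates 2 and 3. Mrpl44, a mitochondrial ribosomal protein gene on the opposite strand that shares 126 bases with Wdfy1, had a log2 change of 0.16 and an adjusted p of 0.399 in edgeR. The sources used here do not state whether counting used strand, so reads of the shared stretch cannot be assigned between them.

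Around Nnt none of 13 tested neighbours passed the edgeR test, 1 had an unadjusted p under 0.05, and DESeq2 and limma-voom called 1 and 0. Of all 15991 tested genes, 4151 had an unadjusted p under 0.05, and DESeq2 and limma-voom called 2155 and 1156. The nearest were Paip1, a regulator of translation 19.1 kb away, with a log2 change of -0.11 ± 0.09 and an adjusted p of 0.470 in edgeR, and Fgf10, a growth factor gene 543 kb away on the other side, at 53.5 ± 4.35 CPM in WT and 53.5 ± 9.05 CPM in the labelled knockout libraries (SD, n = 3).

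Around Entpd4, 1 of 19 tested neighbours passed the test. That was Adam28, a membrane metalloprotease 681.3 kb away, which fell from 15.7 ± 0.448 CPM in WT to 11.5 ± 0.227 CPM (SD, n = 3), a log2 change of -0.45 ± 0.09 with an adjusted p of 0.031 in edgeR. The nearest tested gene on the lower-coordinate side was Slc25a37, the iron carrier mitoferrin-1, 51.6 kb away, with a log2 change of -0.09 and an adjusted p of 0.703 in edgeR. On the other side Loxl2, a lysyl oxidase family member 241.9 kb away, had a log2 change of -0.52 ± 0.13 and an adjusted p of 0.0522 in edgeR.

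Near the Plac9 and Tmem254 block, 4 of 19 tested neighbours passed, and 3 of these were Duxbl genes of the block itself. Duxbl1 held 31, 37 and 52 counts in WT and 16, 6 and 2 counts in the labelled knockout libraries, a log2 change of -1.84 ± 0.40 with an adjusted p of 0.0362 in edgeR. Duxbl2 and Duxbl3 held the same counts as each other, 53, 64 and 93 against 33, 15 and 6, so that the pair gives 1 measurement entered as separate rows, with a log2 change of -1.49 ± 0.33 and an adjusted p of 0.0388 in edgeR. These low genes fell with Plac9 and Tmem254, and labelled knockout replicate 1 held their highest labelled knockout count. Outside the block, Ppif, the mitochondrial matrix protein cyclophilin D, 187.9 kb away, rose from 13.7 ± 1.38 to 19.9 ± 2.51 CPM (SD, n = 3), a log2 change of 0.54 ± 0.12 with an adjusted p of 0.0437 in edgeR. Anxa11, an annexin gene 1.6 kb from the block, stood at 72.2 ± 2.93 CPM in WT and 79.2 ± 2.58 CPM in the labelled knockout libraries, with an adjusted p of 0.279 in edgeR. Adam28, Ppif and the 3 Duxbl genes passed with only 1 of the 6 libraries left out, labelled knockout replicate 1, and their adjusted p rose to between 0.136 and 0.15 at the highest.

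**Figure D4:**
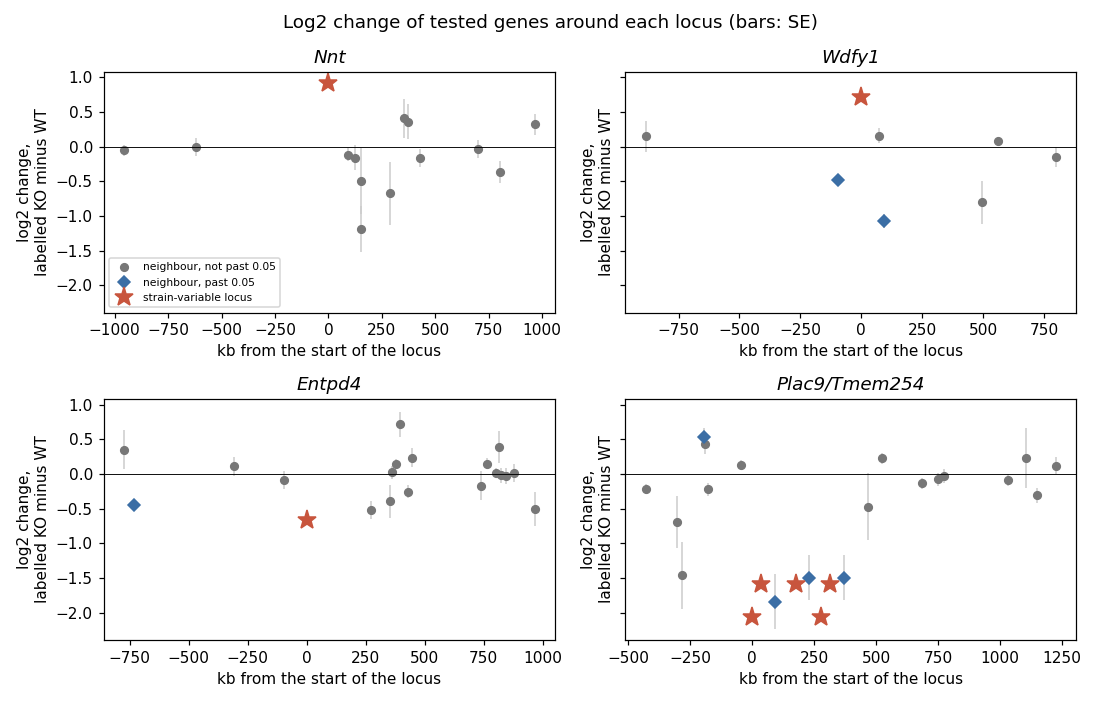
Log2 change of tested genes (vertical, labelled knockout minus WT, bars are SE) against distance in kb from the start of each locus (horizontal). Stars mark the members, blue diamonds the neighbours past an adjusted p of 0.05 and grey points the others. Wdfy1 (0.71) rises between Ap1s3 (-0.48) and Serpine2 (-1.08). Duxbl1 (-1.84) and Duxbl2 (-1.49) lie among the Plac9 and Tmem254 copies, and Duxbl3 (-1.49) lies 50.9 kb beyond the last of them.

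Other genes of the pathways in which the members act were counted next, against the same background of 7.60% of tested genes past the edgeR threshold. The lists were chosen with earlier results of these data known, so their counts and adjusted p-values are a description. NNT is 1 of several mitochondrial sources of NADPH for glutathione and thioredoxin. Of 17 tested mitochondrial NADPH and redox genes, 3 rose and 0 fell, with a median log2 change of 0.17 against 0.00065 over all tested genes. Idh2, the NADP-dependent isocitrate dehydrogenase, rose from 94.9 ± 7.96 to 130.2 ± 16.4 CPM (SD, n = 3; adjusted p 0.0493 in edgeR). Txnrd2, the mitochondrial thioredoxin reductase, rose from 22.5 ± 1.21 to 31.5 ± 4.35 CPM (adjusted p 0.0437 in edgeR), and Me3, a mitochondrial malic enzyme, from 1.68 ± 0.359 to 3.50 ± 0.894 CPM (adjusted p 0.0456 in edgeR). The order of the labelled knockout libraries for Idh2 and Txnrd2 was the reverse of Nnt, with replicate 3 highest.

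Of 20 tested WDFY1 relatives, FYVE proteins and TLR3 and TLR4 signalling genes, 0 passed the edgeR test and 5 had an unadjusted p under 0.05, while DESeq2 called 1 and limma-voom 0. Over all 15991 tested genes these counts were 1215, 4151, 2155 and 1156. The median log2 change was -0.08. Of 9 tested nucleotidases related to ENTPD4, out of 11 listed, 1 rose: Entpd5, a nucleoside diphosphatase of the endoplasmic reticulum, from 86.3 ± 7.12 to 116 ± 12.7 CPM (SD, n = 3; adjusted p 0.0485 in edgeR). The list's median log2 change was -0.10. Idh2, Txnrd2, Me3 and Entpd5 passed with only labelled knockout replicate 1 left out, and their adjusted p rose to between 0.146 and 0.183 at the highest. Without that library, the lists held 5 called mitochondrial genes, 0 WDFY1-related genes and 2 nucleotidases, where 1667 of 16164 tested genes were called. With limma-voom, Idh2 and Entpd5 missed the threshold, at adjusted p of 0.0515 and 0.0511.

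A last list held 14 other genes with known differences between laboratory strains. It too was chosen with earlier results of these data known, so its counts and adjusted p-values are a description. Of the 11 tested, 2 rose and 2 fell, with a median log2 change of -0.09. Alad, an enzyme of haem synthesis, and Hdhd3, a phosphatase-like gene, are neighbours 3783 bases apart on a stretch that is duplicated in some strains, and they rose together. Alad stood at 44.5, 45.6 and 41.3 CPM in WT and at 183, 97.2 and 171 CPM in the labelled knockout libraries, a log2 change of 1.78 ± 0.22 with an adjusted p of 0.00768 in edgeR. Hdhd3 stood at 3.61, 4.05 and 2.96 CPM against 18.9, 10.8 and 20.05 CPM, a log2 change of 2.22 ± 0.26 with an adjusted p of 0.0062 in edgeR. For both, replicate 2 was the lowest labelled knockout library and lay well above every WT library. Alad is also abundant in red blood cells, whose markers, given below, were lower in the labelled knockout libraries, and the part of this difference was not tested.

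Casp4, an inflammatory caspase gene altered in 129 mice, fell from 16.3 ± 2.43 to 9.45 ± 0.526 CPM (SD, n = 3), with a log2 change of -0.78 ± 0.14 and an adjusted p of 0.0202 in edgeR. Hdhd3 passed with any 1 of the 6 libraries left out and Alad in 5 of 6, with 0.0524 without WT replicate 3. Casp4 passed in 2 of 6, without WT replicate 1 or labelled knockout replicate 1.

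Markers of the cells in the tissue bear on all of these levels, since in bulk tissue fewer cells of a type and less RNA per cell cannot be told apart. The 7 adipocyte markers summed to between 10200 and 12603 CPM in WT and between 10547 and 15124 CPM in the labelled knockout libraries, so the labelled tissue carried its defining markers in all 6. Of the 4 red blood cell markers 3 fell, the 2 globins and Alas2, and the list's sum ran from 4707 to 5414 CPM in WT and from 2084 to 2535 CPM in the labelled knockout libraries. Of the 3 tested epidermal markers 2 fell, Sbsn and Dmkn, while the keratin gene Krt10 stood at 2.18 ± 0.657 CPM in WT and 2.58 ± 0.538 CPM in the labelled knockout libraries (SD, n = 3). Krt5, Krt14 and Krt1 were too low to test. The list's sums, 56.4 to 72.0 CPM against 13.4 to 15.1 CPM, were mostly Sbsn, at 60.4 ± 6.59 and 10.3 ± 0.825 CPM. The 6 skeletal muscle markers summed to 725 CPM in WT replicate 1, which stood apart, 75.7 and 112 CPM in WT replicates 2 and 3, and between 49.3 and 82.4 CPM in the labelled knockout libraries. Progenitor and fibroblast markers summed to between 1797 and 2002 CPM against 1213 to 1869 CPM. Of the 4 smooth muscle markers 1 fell, Cnn1, with sums of 253 to 291 CPM against 216 to 247 CPM. The 6 macrophage markers all had a log2 change below 0, with a median of -0.36. So did all tested endothelial, progenitor and fibroblast, smooth muscle, skeletal muscle and red blood cell markers, and the 1 tested mesothelial marker. The same held for 4 of 5 mammary, 2 of 3 epidermal, 3 of 7 adipocyte and 3 of 7 lymph node markers. Of the 6 macrophage markers, Cd163 (-0.72) and Adgre1 (-0.55) did not overlap between the groups, against 32.5% of all tested genes. Of the 6, 0 passed the edgeR test, 3 had an unadjusted p under 0.05, DESeq2 called 2 and limma-voom 0. Over all 15991 tested genes these counts were 1215, 4151, 2155 and 1156. Without labelled knockout replicate 1, edgeR called 3 of the 6, against 1667 of 16164 tested genes. At that setting it called 2 of 5 progenitor and fibroblast markers, 1 of 5 mammary markers and 0 of 4 smooth muscle markers. The macrophage sum, led by Lyz2, overlapped between the groups at 1258 to 1409 CPM in WT and 1042 to 1342 CPM in the labelled knockout libraries. The sums of endothelial, lymph node, mammary and mesothelial markers overlapped between the groups, no marker of any list was at 0 in every library, and the part of these differences in the levels of the members was not tested.

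The profiles most like each locus came from elsewhere in the genome. Likeness was the root mean square difference in log2 CPM, centred on the WT mean, over the 6 libraries, among 14674 genes with a mean of at least 1 CPM. For Nnt they were Zfp658, a zinc finger gene on chromosome 7 (0.0759), and Rgs11, a regulator of G-protein signalling on chromosome 17 (0.0960). Zfp658 had the same order as Nnt in that labelled knockout replicate 3 was the lowest, at 11.3 CPM against 15.1 and 15.3 CPM. For Wdfy1 they were the pseudogene Tmem181c-ps on chromosome 17 (0.0667) and Bik, a pro-apoptotic gene on chromosome 15 (0.0719). For Entpd4 they were Nkx2-1, a transcription factor gene on chromosome 12 (0.0596), and Ube3a, a ubiquitin ligase gene on chromosome 7 (0.0606). Plac9 had no gene within 0.2, the nearest being Adamts4, a matrix protease gene on chromosome 1 (0.238), and Foxb1, a transcription factor gene on chromosome 9 (0.255). Tmem254 had 3 genes within 0.2, led by A630077J23Rik on chromosome 4 (0.161) and 2610507I01Rik on chromosome 11 (0.182). Within the same distance lay 27 genes for Nnt, 254 for Wdfy1 and 377 for Entpd4.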

How the data were processed

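Gene expression was measured by RNA sequencing in 3 WT and 3 labelled Hsp20 knockout libraries, each from 1 mouse. The authors deposited unnormalized counts of reads, as whole numbers for each gene. Tools in the submitters' processing notes are TopHat, DESeq, bcl2fastq and CASAVA 1.8, and the named builds are GRCm38 and mm10. The sources used here do not give the read counter, the annotation or the use of strand. Columns were matched by the sample names in the labels, and gene IDs (24334 of 24415 matched) through a RefSeq table of GRCm38.p6.

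Counts of Plac9a and Plac9b and of Tmem254a and Tmem254c were summed. Low genes were removed with filterByExpr (minimum count 10, minimum total 15) in edgeR 4.0.16 under R 4.3.3. Libraries were scaled by TMM, and the main test was the quasi-likelihood F test with group as the only term, adjusted by Benjamini-Hochberg over 15991 genes with a threshold of 0.05. Standard errors of log2 changes were derived from the F statistic. CPM used TMM-scaled library sizes, and log2 CPM a prior count of 2. The biological coefficient of variation was 14.8%, and the smallest library, 14078936 counts, limits low genes. The scripts were checked on simulated counts. Sequences were aligned with Biopython 1.88 against transcripts of GRCm38, and plots were drawn with matplotlib 3.10.9.

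The members and lists were chosen with earlier results of these data known. Named were Hspb6, the members, the nearest tested gene on each side of a locus, called genes within 1 Mb, up to 4 called genes of each related list and the 2 nearest profiles per locus. A few marker genes and Entpd4b, Gm9780 and the Duxbl pair were named for their role in a count. Alternatives were upper-quartile and DESeq2 scaling, no filter or 1 CPM in 3 libraries, DESeq2 1.42.0, limma-voom 3.58.1, a replicate block, windows of 0.5 and 2 Mb, a prior count of 0.5 for the spread, and each library left out. Using single copies was also tried. Dividing shared counts, matching the spread at divided levels and counting the Duxbl rows once or leaving them out were chosen after seeing the data. A gene of the related lists is not reported here.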

Additional observations from a re-analysis of the deposited data

How the results depend on the processing

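The direction held at all 5 loci under every alternative run. The log2 change ran from 0.81 to 1.08 for Nnt, 0.66 to 0.77 for Wdfy1, -0.70 to -0.64 for Entpd4, -2.19 to -1.90 for Plac9 and -1.68 to -1.45 for Tmem254, each within 1 SD of the value reported; dividing shared counts by a constant cannot move it by construction. With each library left out, the pooled SD ran from 0.0594 to 0.297 for Nnt, 0.0503 to 0.102 for Wdfy1, 0.0361 to 0.0680 for Entpd4, 0.104 to 0.313 for Plac9 and 0.131 to 0.282 for Tmem254.

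Counts of calls depended more on the setting. Over all genes 1215 were called, 2155 with DESeq2 and from 124 to 1667 with a library left out, where 1 library fewer also lowers power. Of the neighbours 7 were called, 10 with DESeq2 and from 1 to 8 with a library left out. Of the related lists 8 genes were called, 15 with DESeq2 and from 1 to 13 with a library left out. Scaling moved the median log2 change by at most 0.015.

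Replicate numbers were not shown to pair the mice: the correlations of same-numbered deviations were -0.038, 0.0917 and -0.0959. With the replicate block, 392 genes, 2 neighbours and 2 related list genes were called, and the log2 changes of the members ran from -2.08 for Plac9 to 0.90 for Nnt. The cause of these differences was not tested. With 3 mice a group no library could be flagged as an outlier, and depth limits the Duxbl counts most.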
